A study of Mus musculus with 32 samples.

Results

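The vomeronasal receptors are the pheromone receptors of the mouse, and 254 of their genes were represented by 291 probes on the arrays of a study of liver metastasis. Members were the probes whose gene name was Vmn1r or Vmn2r followed by a number, out of 55681 probes in all. The family was selected on earlier results of the same data, in which its probes were rarely above background, so its levels and its detection are given as a description with no test. There were 173 probes of 162 V1R genes and 118 probes of 92 V2R genes. Of the 254 genes, 220 had 1 probe, 31 had 2 and 3 had 3.

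V1R and V2R proteins are G protein-coupled receptors of sensory neurons in the vomeronasal organ, at the base of the nasal septum. V1R neurons signal through the G protein subunit Gnai2 and V2R neurons through Gnao1, and both open the cation channel Trpc2. V2R proteins carry a large extracellular domain that V1R proteins lack, and V1R coding sequences lie in a single exon. Each neuron is known to use few members of the family, which lie in clusters of similar genes. Of the 290 member probes with a position in the mm9 genome build, 116 were on chromosome 7, 62 on chromosome 6, 46 on chromosome 17 and 35 on chromosome 13.

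The samples came from Balb/c mice, males of 6 to 8 weeks. C26 colon carcinoma cells had been injected into the spleen of the tumor-bearing mice and saline into that of the controls, and liver cells were taken 14 days later. The 8 groups had 4 biological replicates each. EC, IC and KC were endothelial, Ito (hepatic stellate) and Kupffer cells (resident macrophages) of control livers, and ET, IT and KT were the same cells from the tumor microenvironment (TME) of colonized livers. TM was tumor of the liver metastasis and TP was colorectal primary tumor. The liver cells were fractions separated by density and adherence and then cultured, their purity was checked in the study by immunochemistry, and the sources used here do not state how TM and TP were collected.

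Each array held 2 samples. EC, IC, KC and TM were always labelled with Cy3 and ET, IT, KT and TP always with Cy5, so that within a pair the dye and the condition cannot be told apart. Between 37.4% and 56.1% of all probes were well above background in a channel, and no spot was saturated. Markers did not fully bear out the labels. The 7 endothelial markers had their highest mean log2 level in EC (12.7 to 12.9), but the 7 Ito markers were at 7.36 to 7.91 in IC and at 8.47 to 9.10 in EC. The 7 Kupffer markers were at 12.3 to 13.8 in IC, beside 12.2 to 14.1 in KC. Of the 5 epithelial markers, Epcam, Cdh1 and Cdx2 were not well above background in any TM or TP channel, whereas Krt18 was in all 8 and Krt8 on 2 TM and 4 TP arrays. On the replicate 4 arrays of Ito and Kupffer cells the TME minus control differences ran against those of the other 3 arrays (r = -0.66 and -0.60 across 17104 probes detected in every channel, which are not independent replicates), so that the direction of these 2 arrays is not settled.

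The probes are 60 bases long, and 12 are printed for the members on which the results turn, of which those of Vmn1r169 and Vmn2r4 and the undetected one of Vmn2r3 were chosen after their values were seen. All are written 5′ to 3′ in lower case, and capitals mark the bases that differ from the first probe of the same set. The first was high in all TME liver cells and lies at chr6:89697348-89697407 of mm9 on the plus strand.
Vmn1r41: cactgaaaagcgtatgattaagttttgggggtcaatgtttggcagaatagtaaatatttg

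A pair from chromosome 7 shows how alike probes with different patterns can be. Vmn1r169 (chr7:24363059-24363118, plus strand) followed the TME liver cells, whereas Vmn1r183 (chr7:24840651-24840710, plus strand), which shares 52 of 60 bases with it, was highest in some tumors.
Vmn1r169: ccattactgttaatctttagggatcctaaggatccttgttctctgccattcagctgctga
Vmn1r183: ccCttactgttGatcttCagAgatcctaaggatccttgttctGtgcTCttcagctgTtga

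Another set pairs a probe detected in tumors, Vmn2r78 (chr7:94103589-94103648, plus strand), with one detected in Kupffer cells, Vmn2r67 (chr7:92284783-92284842, minus strand). They share 47 of 60 bases.
Vmn2r78: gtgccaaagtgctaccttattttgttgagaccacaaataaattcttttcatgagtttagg
Vmn2r67: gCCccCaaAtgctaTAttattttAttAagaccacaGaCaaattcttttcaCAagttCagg

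Vmn1r139 (chr7:21004085-21004144, plus strand) and Vmn1r151 (chr7:23283850-23283909, minus strand) share 55 of 60 bases and were high in the same tumor channels.
Vmn1r139: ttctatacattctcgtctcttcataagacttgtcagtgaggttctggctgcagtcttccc
Vmn1r151: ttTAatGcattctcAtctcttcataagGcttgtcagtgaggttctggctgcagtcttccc

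Vmn2r3 had one probe detected in every channel (chr3:64063214-64063273, minus strand) and one detected in none (chr3:64063154-64063213, minus strand), which border each other in the genome. The Vmn2r4 probe (chr3:64192879-64192938, minus strand) matches the first of them at 50 of 55 overlapping bases, and the second is shown on its own with no capitals.
Vmn2r3, detected: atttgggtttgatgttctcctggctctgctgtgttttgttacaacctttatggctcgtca
Vmn2r4: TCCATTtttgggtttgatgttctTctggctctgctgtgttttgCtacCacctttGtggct
Vmn2r3, not detected: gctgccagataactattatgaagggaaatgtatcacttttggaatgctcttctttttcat

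The last 2 are Vmn1r65, the member with the highest level (chr7:5959355-5959414, minus strand), and Vmn1r48 (chr6:89972465-89972524, plus strand).
Vmn1r65: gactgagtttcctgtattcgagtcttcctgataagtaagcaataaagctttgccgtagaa
Vmn1r48: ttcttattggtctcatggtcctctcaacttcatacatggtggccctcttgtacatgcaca

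Most of the family was not well above background in any sample. The scanner software flags a spot as well above background when its signal clearly exceeds the local background, and 194 of 291 member probes (66.7%) carried that flag in 0 of 32 channels, compared with 28.2% of all probes. In terms of genes, 166 of 254 (65.4%) had no probe detected anywhere. Another 68 probes were detected in 1 to 4 channels, 22 in 5 to 31 and 7 in all 32, whereas 30.7% of all probes were detected in all 32. Only 18 member probes (6.19%) were detected on all 4 arrays of at least 1 group, compared with 52.1% of all probes. Taken over all probes and channels, 6.71% of the family's values were well above background, 8.92% for V1R and 3.47% for V2R, compared with 48.0% for all probes and 0.913% for the 308 negative control spots.

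**Figure D1:**
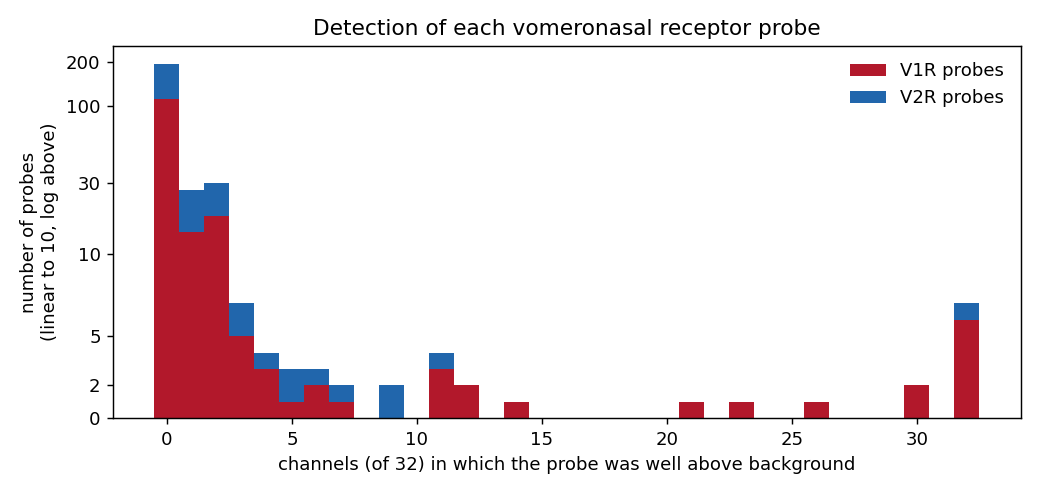
Number of vomeronasal receptor probes (y axis, linear to 10 and logarithmic above) by the number of channels in which each was well above background (x axis), with V1R and V2R probes stacked. The bar at 0 channels holds 194 of 291 probes, and the bar at 32 channels holds 7.

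Several other chemosensory families were about as rarely detected. The 1194 probes of olfactory receptors (Olfr), the odorant receptors of the main olfactory epithelium, had 7.49% of their values well above background, the 37 probes of bitter taste receptors (Tas2r) had 7.94% and the 15 probes of trace amine receptors (Taar) had 6.25%. The 6 probes of formyl peptide receptors (Fpr), which neutrophils and macrophages also use, had 43.2%, and the 3 of sweet and umami taste receptors (Tas1r) had 43.8%. These shares are descriptions, and differences between families were not tested.

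The number of member probes detected varied little between groups. It was lowest in Kupffer control replicate 3 (11 probes) and highest in Ito control replicate 3 (35 probes). The lowest, median and highest counts were 16, 18 and 26 in EC and 17, 21 and 23 in ET. They were 17, 21 and 35 in IC and 14, 18.5 and 21 in IT. In Kupffer cells they were 11, 16 and 20 in KC and 17, 18.5 and 21 in KT. In the tumors they were 14, 23.5 and 30 in TM and 14, 16.5 and 23 in TP. The ranges of all 8 groups overlapped. Replicate 3 of KC also had the lowest share of all probes detected among the Kupffer channels (43.5%), whereas replicate 3 of IC lay within the range of the IC channels (49.8% to 52.0%). In replicate 3 of IC 2.92% of the negative control spots were well above background, the highest share of any channel, and its part in the count of 35 was not tested.

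**Figure D2:**
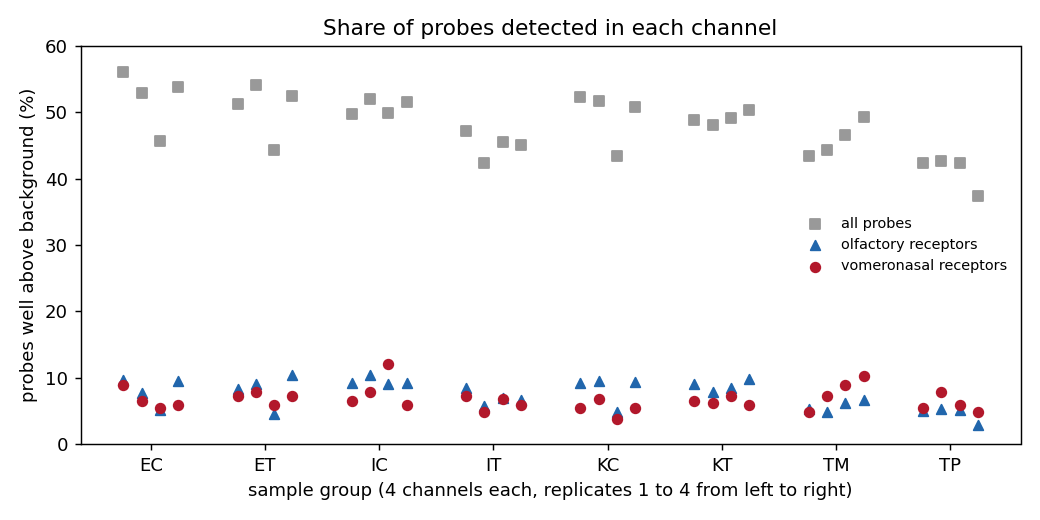
Percent of probes well above background (y axis) in each of 32 channels by sample group (x axis), for all probes (squares), olfactory receptors (triangles) and vomeronasal receptors (circles). Vomeronasal receptors lie between 3.78% and 12.03% in every channel, and all probes between 37.4% and 56.1%.

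On the log2 scale of the deposited values, the median of the member probes' mean levels was 2.42, compared with 4.13 for all probes, and the median member stood at the 18.8th percentile of all probes. The 194 members never detected had a median level of 2.17 to 2.28 in the channels, and all 15719 probes never detected had 2.22 to 2.30. The lowest 3 members were Vmn1r191, Vmn2r108 and Vmn2r66, whose values did not exceed 1.92 in any channel. They were not well above background anywhere, so no order among them can be read.

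Member probes also differed in what they can measure. By the transcripts the array files list, 66 probes matched several RefSeq genes, 219 matched 1 and 6 matched none. Of the 66, 25 (37.9%) were detected at least once, and of the 219, 69 (31.5%) were. Among 209 pairs of member probes with at least 42 identical bases, both probes were undetected in 130, one was detected in 53 and both in 26. The letters AATAAA, the common polyadenylation signal, searched on the printed strand only, were in 9 of 97 probes detected at least once (9.28%) and in 9 of 194 never detected (4.64%). They were in 10.1% of all probes and in 7.83% of all probes never detected. The median GC content was 36.7% in members never detected, 38.3% in those detected in 1 to 31 channels, 43.3% in the 7 detected everywhere and 43.3% in all probes.

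The probes detected in all 32 channels were those of Vmn1r65, Vmn1r217, Vmn1r25, Vmn1r87, Vmn2r3, Vmn1r70 and Vmn1r204. Except for Vmn2r3 they are V1R genes. Those of Vmn1r48 and Vmn1r173 followed with 30 channels, Vmn1r192 with 26, Vmn1r52 with 23 and Vmn1r195 with 21. Vmn1r25 and Vmn1r70 ranged from 6.73 to 7.99 and from 6.04 to 7.45 over all channels. In some genes a second probe did not follow the first. The second probe of Vmn1r217 was detected in 1 channel and that of Vmn2r3 in 0, while both probes of Vmn2r88 were detected in a part of the channels (11 and 9). By the listed transcripts, the undetected probe of Vmn2r3 matched Vmn2r1, Vmn2r2, Vmn2r3 and Vmn2r4, and the detected one Vmn2r3 only. What each second probe can bind was not tested.

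Between TME and control liver cells a single member was called, Vmn1r41, and it was called in all 3 cell types. In EC its log2 levels were 2.37, 2.22, 2.27 and 2.18, and in ET they were 6.57, 6.07, 6.18 and 6.31. In IC they were 2.17, 3.09, 2.18 and 2.08, and in IT they were 7.10, 7.05, 6.73 and 7.37. In KC they were 2.17, 2.16, 2.94 and 2.28, and in KT they were 7.04, 6.79, 5.84 and 6.42. All 12 TME channels were well above background and higher than all 12 control channels, none of which was. Because the control side was not well above background, only a lower limit of the fold can be given, computed on the scanner signals after background correction and dye normalization, and open to dye bias because dyes were not swapped. Here and below, the adjusted p beside such a limit is from limma on the deposited values and does not test the limit. Vmn1r41 was at least 2.10-fold higher in ET than in EC (limma, adjusted p = 7.87e-12). IT exceeded IC by at least 2.39-fold (adjusted p = 1.94e-13). KT exceeded KC by at least 2.23-fold (adjusted p = 2.73e-12).

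**Figure D3:**
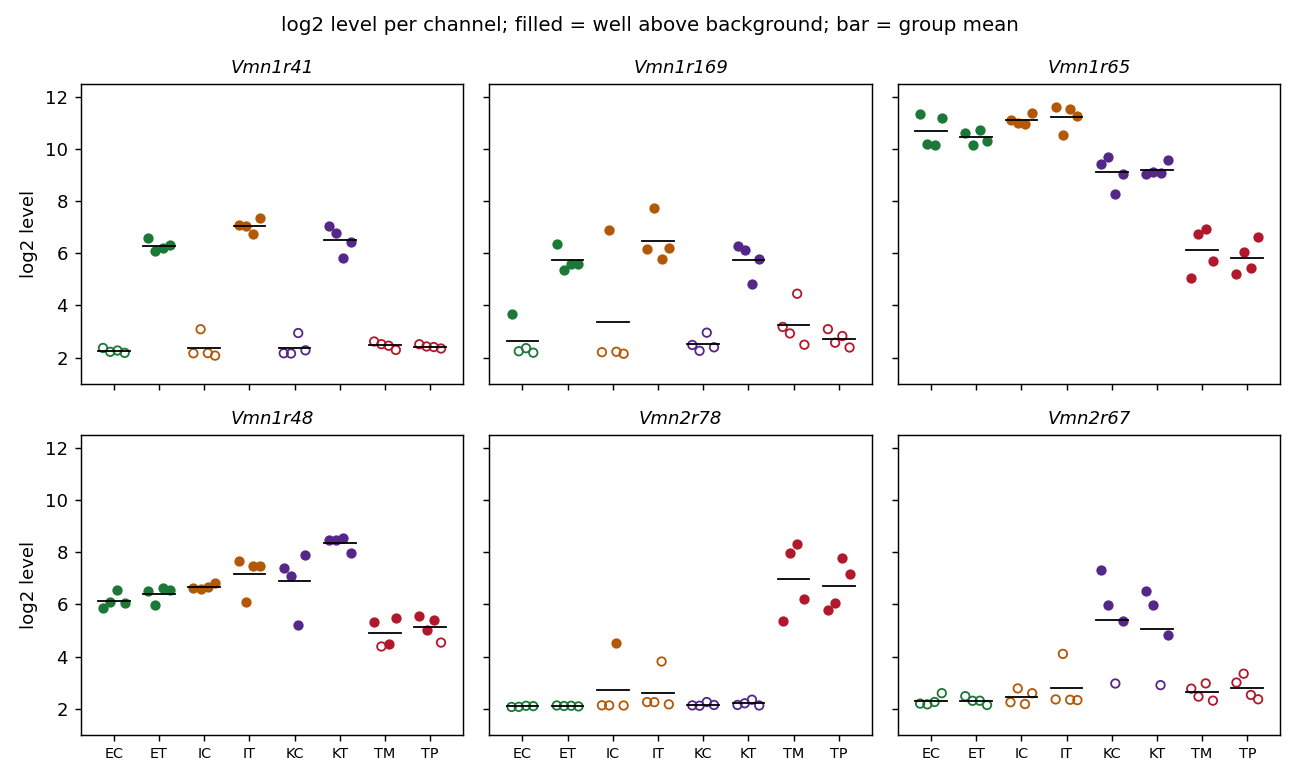
log2 levels (y axis) of 6 vomeronasal receptor probes in each channel by sample group (x axis), with filled points well above background, open points not, and bars at group means of 4 replicates. Vmn1r41 is filled in the 12 TME liver channels only, Vmn2r78 in all 8 tumor channels and 1 Ito control channel, and Vmn1r65 in all 32.

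The 4 neutrophil markers also moved with the endothelial comparison, with a mean log2 level of 5.66 to 6.35 in EC and 8.31 to 9.60 in ET. At the criteria used for calls, 0 of them were called there. They ranged from 6.03 to 10.21 in IC and 6.40 to 10.34 in IT, and from 7.41 to 10.25 in KC and 7.81 to 10.04 in KT, with overlap, and their part in the Vmn1r41 difference was not tested. In bulk fractions, fewer cells of a type and less RNA per cell cannot be told apart.

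In the tumors Vmn1r41 was at 2.62, 2.52, 2.46 and 2.30 in TM and at 2.51, 2.43, 2.41 and 2.35 in TP. It was not well above background in either dye there. On the 2 arrays of unsettled direction Vmn1r41 was again well above background in the Cy5 channel and not in the Cy3 channel. With the channels of these 2 arrays exchanged, the mean differences became 2.04 in Ito cells (adjusted p = 0.303) and 2.06 in Kupffer cells (adjusted p = 0.385). No difference between cell types in the TME change passed the test (lowest limma adjusted p 0.995), with all control sides at background.

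With a minimum of 4-fold and an adjusted p under 0.001 as the criteria, 1 of 291 members was called higher and 0 lower in each TME comparison. Over all probes 0.102% were called higher and 0.0629% lower in endothelial cells, 0.0916% higher and 0% lower for Ito cells, and 0.111% higher and 0% lower for Kupffer cells. With another background correction (normexp) Vmn1r41 fell under the 4-fold minimum in all 3. With only the groups compared in the fit, its call was also lost in Ito (adjusted p = 0.00203) and Kupffer cells (adjusted p = 0.00378), and likewise with an equal-variance test probe by probe (adjusted p 0.0114 and 0.0253). By the adjusted p alone, at 0.05, 2 members passed in endothelial cells (all probes 1.14%), 2 in Ito cells (0.289%) and 3 in Kupffer cells (0.436%). Beyond Vmn1r41 these were Vmn1r169 in all 3 and Vmn1r226 in Kupffer cells, the latter never detected.

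Vmn1r169, named after its values were seen, was at 3.68, 2.25, 2.36 and 2.19 in EC and at 6.34, 5.38, 5.57 and 5.61 in ET. In IC it was at 2.21, 6.88, 2.23 and 2.15 and in IT at 6.18, 7.73, 5.77 and 6.21. In KC it was at 2.49, 2.26, 2.96 and 2.40 and in KT at 6.26, 6.14, 4.84 and 5.78. The groups did not overlap in endothelial and Kupffer cells, and in Ito cells they overlapped through IC replicate 2 alone. EC replicate 1 and IC replicate 2 were the only control channels well above background. With 1 of 4 control channels measured above background in each, limma's adjusted p was 0.0183 in endothelial and 0.0467 in Ito cells, and in Kupffer cells the probe was at least 1.64-fold higher (adjusted p = 0.0245), all short of 0.001. Without replicate 2 the adjusted p in Ito cells was 0.000187. With the channels of the replicate 4 arrays exchanged, it was 0.684 in Ito and 0.567 in Kupffer cells, and in endothelial cells it was 0.209 without replicate 1. The probe is also listed for Vmn1r176, so the 2 genes cannot be told apart. No tumor channel was well above background for it.

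Vmn1r65 had the highest mean level of the family (9.21) and differed between liver cells and tumors. In EC its log2 levels were 11.33, 10.18, 10.14 and 11.17. The level was 10.44 ± 0.27 in ET, 11.11 ± 0.19 in IC and 11.23 ± 0.50 in IT (mean log2 ± SD, n = 4 each). It was 9.10 ± 0.62 in KC and 9.20 ± 0.25 in KT, and 6.11 ± 0.89 in TM and 5.82 ± 0.64 in TP. The endothelial and Ito ranges overlapped, the Kupffer channels, on the other slide, were lower than all of them, and every tumor channel (5.06 to 6.93) was lower than every Kupffer channel (8.25 to 9.69). In the tumors it fell by 3.18 ± 0.27 against Kupffer cells (SE, log2, limma, adjusted p = 4.81e-11), the one called difference of the family that stayed called in all 12 alternatives tried. The 5 hepatocyte markers ran from 9.54 to 11.8 in KC and from 2.48 to 3.28 in the tumors (mean log2). In the other liver cells they ran from 10.8 to 11.1 in EC, 9.5 to 9.9 in ET and 12.9 to 14.1 in IC. They ran from 12.4 to 14.1 in IT and 10.9 to 11.8 in KT, so their order differed in part from that of Vmn1r65. Endothelial and Kupffer markers were lower in the tumors too, and the part of any of these cells in this difference was not tested.

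In tumors compared with Kupffer cells, both dyes were present on both sides in equal number, all on slide 2. The 8 channels of each side came from 4 arrays, and the fit counted them as separate samples. Where the 2 channels of an array moved together, as for Vmn2r67, the adjusted p in this contrast is too small. Of 291 members, 8 were called higher (7.31% of all probes) and 5 lower (8.21% of all probes). By the adjusted p alone, at 0.05, 63 were higher and 9 lower, 72 in all or 24.7% of the members, compared with 51% of all probes. The median difference was 0.10 for the members and 0.11 for all probes on the log2 scale. All 7 endothelial, 7 Kupffer, 5 hepatocyte, 4 neutrophil and 3 erythrocyte markers were called lower in the tumors. With normexp, 1 of the 13 member calls, Vmn1r65, was left.

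Vmn2r78 was the member detected in every tumor channel and in no endothelial or Kupffer channel. Its levels were 5.37, 7.98, 8.33 and 6.21 in TM and 5.78, 6.06, 7.76 and 7.18 in TP, and between 2.12 and 2.35 in the Kupffer channels. The tumor and Kupffer ranges lay far apart, and TM and TP overlapped. The difference amounted to at least 2.51-fold (limma, adjusted p = 3.08e-11). Its probe is also listed for Vmn2r79. Outside the tumors it was well above background in IC replicate 3 only, at 4.54.

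Vmn2r67, whose probe resembles that of Vmn2r78, had the opposite pattern. Its levels were 7.33, 5.98, 2.97 and 5.35 in KC and 6.53, 5.96, 2.91 and 4.83 in KT, and between 2.31 and 3.34 in the tumors. Replicate 3 was at tumor level in both KC and KT, and these samples shared an array, whereas the other 6 Kupffer channels were well above background. No endothelial, Ito or tumor channel was. The tumors were at least 1.34-fold lower (limma on the deposited values, adjusted p = 3.10e-05). Without replicate 1, 2 or 4 the call was lost (adjusted p 0.00260, 0.00197 and 0.00298).

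Vmn1r48 and Vmn2r3 were also lower in the tumors. Vmn1r48 was 4.39 to 5.54 in the tumors and 5.22 to 8.56 in Kupffer cells, where replicate 3 of KC alone overlapped with them, and it fell by 2.61 ± 0.28 (SE, log2, limma, adjusted p = 6.18e-09). Its probe is also listed for Vmn1r47. The detected probe of Vmn2r3 was 5.41 to 6.15 in the tumors and 6.91 to 8.63 in Kupffer cells with no overlap, and it fell by 2.19 ± 0.20 (adjusted p = 1.95e-10). The fifth lower member was Vmn1r41, which was at background in the tumors and in KC alike, and within the Kupffer cells it was well above background in KT only. It was at least 1.25-fold lower (adjusted p = 1.06e-11), with a fold just at the minimum that was missed without replicate 1 or 4.

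The other 7 higher members were V1R genes, 6 of them on chromosome 7. Vmn1r139 was at 4.52, 6.16, 6.38 and 3.72 in TM and at 4.21, 7.65, 2.08 and 5.39 in TP. Vmn1r132 was at 4.47, 5.88, 5.64 and 4.72 in TM and at 3.73, 6.78, 2.57 and 4.19 in TP. Vmn1r178, Vmn1r181, Vmn1r183 and Vmn1r151 were at 4.97 to 7.24 in TM replicates 2 and 3 and TP replicate 2. TP replicate 4 followed at 4.19 to 6.18 over the 6 probes. TP replicate 3 was at 2.08 to 3.24 for these 6 probes, although TM replicate 3 on the same array was high, and for Vmn1r139, Vmn1r132 and Vmn1r151 it overlapped with the Kupffer channels. Between 3 and 4 of 8 tumor channels were well above background for each, and no Kupffer channel was. The lower limits of the fold ran from 1.21 for Vmn1r181 to 1.59 for Vmn1r139 (limma, adjusted p 0.000168 and 1.11e-05). Without replicate 2 the calls of Vmn1r132 (log2 difference 1.93), Vmn1r183, Vmn1r181 and Vmn1r151 were lost, and without replicate 4 those of Vmn1r183, Vmn1r181 and Vmn1r151, and Vmn1r151 also without replicate 1. The listed transcripts of Vmn1r139 include Vmn1r132 and those of Vmn1r183 include Vmn1r178 and Vmn1r151, so the 6 probes are not 6 independent measurements. Further probes of Vmn1r183 stayed at 2.21 to 2.37 and at 1.81 to 1.86 in the tumors, none well above background there. The second probe of Vmn1r178 was detected in 0 channels and that of Vmn1r181 in 1. The pattern therefore holds for the probes given, not for every probe of these genes.

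**Figure D4:**
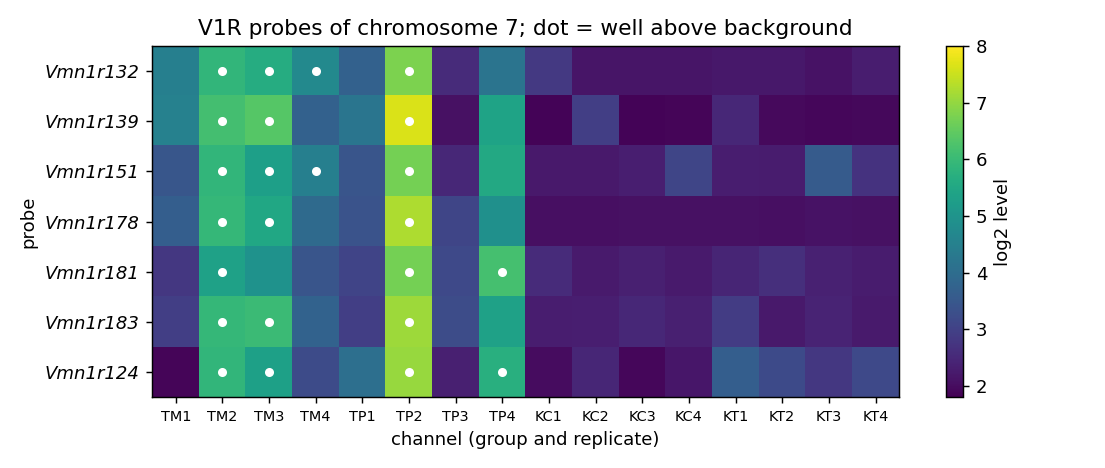
log2 level (colour) of 7 V1R probes of chromosome 7 (y axis) in the tumor and Kupffer channels (x axis), with a dot where the probe was well above background. TM replicates 2 and 3 and TP replicate 2 are high for all 7 probes, and no Kupffer channel has a dot.

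Vmn1r44, on chromosome 6, was the remaining higher member. It was at 4.64, 5.15, 5.38 and 5.32 in TM and at 4.90, 2.48, 6.18 and 4.40 in TP, and at 2.06 to 2.25 in Kupffer cells. Of the tumor channels 4 were well above background, and every tumor channel was above every Kupffer channel (at least 1.37-fold, limma, adjusted p = 0.000643). Without replicate 1, 2 or 4 the call was lost (adjusted p 0.0121, 0.00309 and 0.0127). Both IC and IT replicate 3 were at 6.96 and 6.70, on a shared array, while the other 6 Ito channels were at 2.08 to 2.19.

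Primary tumor and liver metastasis differed in 3 members, all higher in TP (0.388% of all probes were called higher and 0.0198% lower). Only one of them, Vmn2r35, was well above background, at 5.57, 6.14 and 5.99 in TP replicates 1 to 3, beside 5.58 in replicate 4, which was not, and 2.46, 3.37, 2.94 and 2.14 in TM. The groups did not overlap, and the difference amounted to at least 1.31-fold (limma, adjusted p = 0.000788). Without replicate 1, 2 or 4 it was not called (adjusted p 0.0166, 0.0196 and 0.0194). Its probe is listed for 4 genes, and the other 2 probes of Vmn2r35 were not well above background in any tumor channel. Vmn1r38 (4.30, 4.61, 3.97 and 5.32 in TP, 2.18 to 2.40 in TM, adjusted p = 1.38e-08) and Vmn2r18 (4.51, 4.65, 4.44 and 4.86 in TP, 1.82 to 1.88 in TM, adjusted p = 3.13e-07) were not well above background in any of 32 channels, so no fold is given. By the adjusted p alone, at 0.05, 13 members passed (4.47%, compared with 3.01% of all probes). Dye and group cannot be told apart here.

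Between Ito and endothelial cells no member was called by limma (0 higher and 0 lower, compared with 0.964% and 0.514% of all probes). At an unadjusted p under 0.05, 32 were higher (13% of all probes) and 5 lower (16.2% of all probes), and by the adjusted p alone, at 0.05, 10 passed (3.44%, compared with 18.1% of all probes). Of those detected in all channels, Vmn1r25 was at 6.73 to 7.25 in endothelial and 7.29 to 7.91 in Ito cells with no overlap, a difference of 0.69 ± 0.12 (SE, log2, adjusted p = 9.95e-05). Here too the fit counted the 2 channels of an array as separate samples.

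Some members were high on 1 array alone. In 27 probes 1 channel, and in 34 probes 2 channels, lay at least 4-fold above the probe's own median over all channels. In 29 of these 34 the 2 channels were those of one array, which carry different samples. The same counts were not made over all probes, so whether such values are particular to the family was not tested. Examples were Vmn1r21 in IC and IT replicate 3 (up to 8.64, median 2.29) and Vmn1r7 in TM and TP replicate 1 (up to 7.52, median 2.04). Vmn2r68 was high in KC and KT replicate 3 (up to 8.89, median 2.01), but the scanner software had marked its KC replicate 3 spot as an outlier. IC replicate 3 and TP replicate 4 each held 11 such values, more than any other channel. Of the 291 member probes 288 had 1 spot, so a repeat spot to compare was present for 3 only.

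A list of signalling and other genes linked to vomeronasal neurons gave a mixed picture. The list held 28 genes, of which 4 (Gnai2, Gnb1, Omp and B2m) were detected in all 32 channels and 6 (Ano2, Rtp1, Calr4, H2-M1, H2-M10.4 and H2-M10.6) in none. Gnai2, Gnb1 and B2m are used by most cells. None of the 28 was called in the TME comparisons or between TP and TM, 1 was called lower in Ito than in endothelial cells, and 3 were called higher and 4 lower in tumors than in Kupffer cells, where 7.31% and 8.21% of all probes were. Gng8, the G protein gamma subunit of vomeronasal and olfactory neurons, was at 10.02 ± 0.87 in TM and 9.34 ± 1.09 in TP (mean log2 ± SD, n = 4) and at 2.39 ± 0.26 in KC. Trpc2, the channel that both receptor classes need, was at 6.09 ± 0.31 in TM, 4.81 ± 0.60 in EC and 3.62 ± 0.82 in KC. Gnao1, the G protein of V2R neurons, was well above background in 4 tumor channels and in no liver cell channel. For Trpc2, which had 3 probes, and Gnao1, which had 2, a single probe is given. Lhx2 and H2-M11, which are on the list but are not signalling genes, ran the opposite way. Lhx2 was at 11.01 ± 0.30 in KC and 2.25 ± 0.02 in TM, and H2-M11 at 9.72 ± 0.71 in KC and 6.52 ± 0.38 in TM.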

How the data were processed

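RNA of 32 samples was hybridized in pairs to 16 two-colour Agilent arrays on 2 slides. The authors extracted intensity values with Feature Extraction 10.7.3.1, whose flags mark each spot as well above background or not, and deposited a table of quantile-normalized intensity for 55681 probes, used here on the log2 scale. The 8 groups were compared in 6 contrasts with limma 3.58.1 in R 4.3.3 (tables in Python 3.11.15), fitted to all probes and all 32 channels, with Benjamini-Hochberg adjustment. Calls needed an adjusted p under 0.001 and at least 4-fold, after the study's thresholds. The study itself used Student's t-test, and the equal-variance test probe by probe is the alternative of that kind. Detection was taken from each sample's own channel. Each of the 6 contrasts lay within 1 slide, whereas comparisons of Kupffer or tumor with endothelial or Ito channels cross the slides. In simulated data for the endothelial comparison with 200 of 55681 probes changed by 4 on the log2 scale, 95.5% were recovered with 0 false calls. The simulated noise was normal and independent between channels, with no array or dye effect, so false calls from these were not tested. Lower limits of the fold came from scanner signals after normexp (offset 50), loess and Aquantile. The adjusted p values beside them came from limma on the deposited values. Members and gene lists were chosen with earlier results of these data known. Named were all called members, the 12 detected in most channels and the 3 highest and 3 lowest. RefSeq (GRCm38.p6) transcripts matched 283 of 291 member probes, 282 with the same symbol, and were used for names only. Probe positions are those of the array files (mm9). Replicate numbers pair samples of one array: the correlation of their deviations from group means was 0.117 to 0.520 on 14 arrays and -0.29 and -0.198 on the 2 others (Ito and Kupffer replicate 4), so the array was used as a random block in an alternative only. Other alternatives were the background correction, scaling, a filter on dim probes, the test and leaving out each replicate. The number of arrays limits precision.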

Additional observations from a re-analysis of the deposited data

Results flagged for a closer look

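In 136 groups of 4 values, 15 had a sample standing apart from the other 3 by Dixon's criterion, which chance alone exceeds in about 1 in 20 groups. None of 291 members passed the limma test of a difference in TME change between cell types (adjusted p under 0.05). Replicate 3 of IC stood apart with high values of Vmn2r35 (6.14, others 2.39 to 2.47), Vmn2r78 (4.54, others 2.12 to 2.13) and Vmn1r44 (6.96, others 2.08 to 2.09). Replicate 3 of IT did so for Vmn1r44 (6.70, others 2.14 to 2.19).

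Replicate 2 of IT was low for Vmn1r48 (6.09, others 7.46 to 7.65) and Vmn2r3 (6.54, others 8.01 to 8.07) and high for Vmn1r87 (9.35, others from 6.77). Replicate 2 of ET was low for Vmn1r48 (5.96, others 6.51 to 6.62). Replicate 3 of KC was low for Vmn2r3 (6.91, others 7.96 to 8.07) and Vmn1r52 (3.91, others 4.98 to 5.13). Replicate 3 of KT was high for Vmn1r204 (6.66, others 5.18 to 5.37), and replicate 4 of KT was high for Vmn1r65 (9.57, others 9.05 to 9.12) and low for Vmn1r195 (3.97, others 4.56 to 4.61). Vmn1r169 was high in EC replicate 1 (3.68, others 2.19 to 2.36) and in IC replicate 2 (6.88, others 2.15 to 2.23). IT replicate 2 and KC replicate 3 were also the channels with the lowest share of all probes detected in their groups, at 42.4% and 43.5%.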

How the results depend on the processing

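With normexp background correction, followed by quantile or by loess and Aquantile, 0 members were called in every TME comparison and between TP and TM, and 1 (Vmn1r65) between tumor and Kupffer. Vmn1r41 then differed by 1.08 to 1.48 on the log2 scale, under the 4-fold minimum, with adjusted p of at most 5.16e-07. With only the groups compared in the fit, and with an equal-variance test probe by probe, 0 were called in Ito and 0 in Kupffer cells under both, 1 under both between TP and TM, and 8 and 7 between tumor and Kupffer. The filter on dim probes left 0 between TP and TM and 5 between tumor and Kupffer, the 75th percentile 1 between TP and TM, and the 16-fold minimum 0 and 1. At an adjusted p under 0.05 the counts were 2, 2, 3, 13, 10 and 72 in the order of endothelial, Ito, Kupffer, TP minus TM, Ito minus endothelial and tumor minus Kupffer. Without 1 replicate the counts were 1 to 1 in endothelial, 1 to 2 in Ito, 1 to 1 in Kupffer, 1 to 3 between TP and TM (1 without replicate 4), 0 to 0 between Ito and endothelial and 7 to 14 between tumor and Kupffer (7 without replicate 2, 8 without replicate 4). With the array as a replicate block, the counts of calls were unchanged at 1, 1, 1, 3, 0 and 13. That block used 1 correlation for all probes (0.078), so it does not correct members whose channels on an array move closely together. Chosen after seeing the data, exchanging the channels of the replicate 4 arrays gave 0 in Ito and 0 in Kupffer cells, and subtracting the TP minus TM difference gave 2 in Ito and 3 in Kupffer cells, where Vmn1r41 was the one called higher. Vmn1r41 was at background in the tumors, so this subtraction tests no dye effect on it. Detection rose from 6.71% to 25.6% with the flag for a positive and significant signal, and was 6.61% to 6.82% without 1 replicate. The median member stood at percentiles 15.0 and 15.1 with normexp, and at 18.4 to 19.0 without 1 replicate. Of 257 values for 22 named differences, none reversed its direction, 80 fell short of the call and 1 passed it. The causes of these changes were not tested. No dye swap and 4 arrays a group limit all comparisons, and signal near background limits the folds.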

Other observations

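Vmn1r58 had 2 of the highest values of the family, 8.71 in TM replicate 2 and 8.87 in TP replicate 2, on a shared array. Neither was flagged as well above background, and the scanner software had marked the spot as an outlier in both channels. Such marks touched 4 member probes (Vmn1r233, Vmn1r81, Vmn1r58 and Vmn2r68).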
